A study of Mus musculus with 10 samples.

Results

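The clustered protocadherin genes lie side by side on mouse chromosome 18 in 3 subclusters named Pcdha, Pcdhb and Pcdhg. The members described here are all genes whose symbol starts with Pcdha, Pcdhb, Pcdhga, Pcdhgb or Pcdhgc in the RefSeq gene table of the mm10 assembly (GRCm38). They number 58 of 49997 genes, with 14 Pcdha, 22 Pcdhb and 22 Pcdhg members. Pcdhgb8 is annotated as a transcribed pseudogene, and all the others are annotated as protein-coding. Open chromatin was examined from 50 kb before the first member to 50 kb after the last, at chr18:36880285-37891873. Of 208851 regions with a peak in any of 10 ATAC-seq libraries, 109 lay in this interval.

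Clustered protocadherins are adhesion proteins of the cell surface, best known from neurons, where each cell uses a small and largely random choice of them and so acquires an identity that lets it tell its own branches from those of other cells. In the Pcdha and Pcdhg subclusters each member has its own promoter and its own first exon, which is spliced to constant exons shared by the whole subcluster. The Pcdhb members are single-exon genes without shared constant exons. Promoter choice depends on DNA methylation and on looping between promoters and distant enhancers by CTCF and cohesin. The C-type members (Pcdhac1, Pcdhac2, Pcdhgc3, Pcdhgc4 and Pcdhgc5) differ in sequence from the others and are not subject to the same random choice.

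ATAC-seq, in which a transposase inserts sequencing adapters into accessible DNA, was made from mouse cells of C57BL/6 x 129 background at 5 stages, with 2 libraries each. Embryonic fibroblasts (MEF) carried an OKSM cassette (Oct4, Klf4, Sox2 and Myc) in Col1a1 and its doxycycline-dependent activator M2rtTA in Rosa26. They were taken unsorted without doxycycline, unsorted after 3 days in ESC medium with 1 µg/ml doxycycline and 50 µg/ml ascorbic acid (DAY3), and after 6 and 9 days of the same treatment (DAY6, DAY9) following a sort for the surface marker SSEA1. The reference was V6.5 (ESC), an embryonic stem cell line that has no cassette and was grown unsorted in ESC medium without doxycycline on irradiated feeder cells. The genotype, the medium and the sort therefore change together with the stage and cannot be told apart from it. All 10 libraries carry the same batch name.

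The peak lists held 45497 (DAY3) to 88980 (ESC) peaks. The lists give no read totals, and relative depth was taken from the background pileup, the number of overlapping fragments that the peak caller took as the genome-wide background. It ranged from 2.33 to 8.32. In the shallowest library a peak at that background needed a fold of 3.61 to be listed, and in the deepest a fold of 2.57, where the fold is the authors' own enrichment of a peak over its local background. The libraries of DAY3 and those of DAY9 differed by little more than counting noise, with noise ratios of 1.33 and 1.42 where 1 is counting noise alone, against 3.61 to 8.11 for the replicates of the other stages. Both pairs therefore entered as 1 sample each, which left 8 samples and no replicate error for DAY3 and DAY9. Peaks were listed at the starts of 4 of 5 fibroblast markers in both MEF libraries (51.0% of protein-coding genes), Postn (a matrix protein) among them at folds of 8.19 and 5.50 and in no other library. The fifth, Prrx1, had no peak in MEF and was listed in ESC replicate 2 alone (2.18). Nanog, a core pluripotency factor, had a start peak in both DAY9 (folds 2.25 and 2.42) and both ESC libraries (5.32 and 3.14) and in no other. The starts of the fibroblast genes Col1a2, Twist1 and Zeb2 had peaks in all 10 libraries, ESC included, and the part of feeder cells in this was not tested. Zeb2 was lowest in MEF (2.77 and 2.57) and had folds of 4.76 to 8.24 in the other libraries. Of protein-coding genes on other chromosomes, 52.3% to 59.8% had a start peak in each of the 10 libraries. Of 5 pluripotency markers, 1 or 2 had one in the MEF and DAY3 libraries and 2 or 3 at DAY6. The count was 4 at DAY9 and 3 to 5 in ESC. Pou5f1, a gene of the cassette, went the other way. Its start had a peak in both MEF libraries (3.62 and 5.84) and in all DAY3, DAY6 and DAY9 libraries. In ESC it had one in replicate 1 (2.59) and none in replicate 2.

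The first question was how far the cluster is open at each stage. The whole interval held 35 and 26 peaks in the MEF libraries, 23 and 27 at DAY3, 43 and 31 at DAY6, 49 and 51 at DAY9, and 55 and 67 in ESC. Both ESC libraries and both DAY9 libraries were above every MEF, DAY3 and DAY6 library. The mean was 30.5 ± 6.36 (SD, n = 2) in MEF, 25 at DAY3, 37 ± 8.49 (SD, n = 2) at DAY6, 50 at DAY9 and 61 ± 8.49 (SD, n = 2) in ESC. Differences between stages held 88.3% of the total sum of squares, and 34 of the 420 ways of parting the samples gave a share as large (one-sided exact permutation test, p = 0.081, Benjamini-Hochberg adjusted p = 0.312 over 12 tests). The difference between stages therefore did not pass the threshold of 0.05, and neither did any other of the 12 tests of peak number and gene starts. In these bulk libraries, opening in fewer cells and weaker opening in every cell cannot be told apart.

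**Figure D1:**
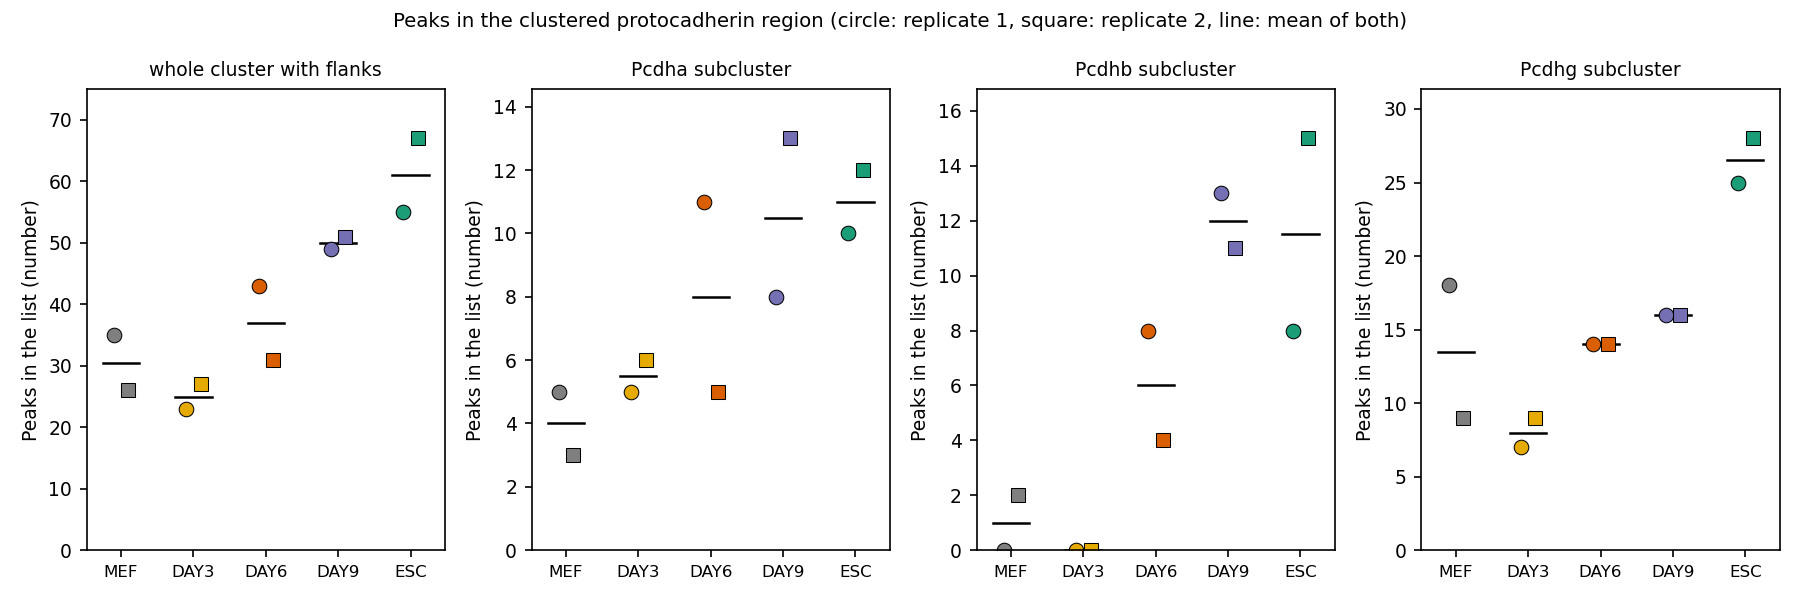
Number of peaks (vertical axis) in the whole interval and in each subcluster, by stage; circles and squares are replicates 1 and 2, and the line is their mean. The ESC libraries are highest for the whole interval (55 and 67) and for Pcdhg (25 and 28), and Pcdhb has no peak in 3 of the 4 MEF and DAY3 libraries.

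The lists also differ in length, so the counts were set against it. Per 10000 peaks of the list, the interval held 4.37 ± 0.465 (SD, n = 2) in MEF, 5.48 at DAY3, 5.93 ± 0.950 (SD, n = 2) at DAY6, 6.41 at DAY9 and 6.94 ± 0.833 (SD, n = 2) in ESC. The stage means kept ESC above MEF, but the difference between stages was again within what other partitions gave (share 79.8%, exact permutation test, p = 0.205, adjusted p = 0.312 over 12 tests). The same measure in the subclusters gave shares of 65.2% for Pcdha, 84% for Pcdhb and 74.6% for Pcdhg (exact permutation tests, p = 0.419, 0.157 and 0.255). When every list was reduced to its 45497 highest-scoring peaks, the interval held 22 and 15 peaks in MEF, 23 and 27 at DAY3, 30 and 24 at DAY6, 20 and 18 at DAY9, and 29 and 28 in ESC. On that scale DAY9 lay within the range of MEF, and DAY6 and ESC were at about the same level.

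Libraries of similar depth can be compared directly, as a description. At background pileups of 3.42, 3.45 and 3.48, MEF replicate 1 held 35 peaks in the interval, DAY6 replicate 1 held 43 and ESC replicate 1 held 55. At pileups of 5.27 to 5.46, the DAY3 libraries held 23 and 27 and ESC replicate 2 held 67. At pileups of 7.33 to 8.32, MEF replicate 2 held 26 and the DAY9 libraries 49 and 51. In each of these 3 sets the later stage had more peaks than the earlier. The whole lists also differed, with 74444, 65145 and 86585 peaks in the first set. They held 45766 and 45497 against 88980 in the second, and 64295 against 77787 and 78308 in the third. At equal list length the interval held 22, 30 and 29 peaks in the first set, so ESC was not above DAY6. It held 23 and 27 against 28 in the second, and 15 against 20 and 18 in the third.

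The subclusters were then counted separately. Pcdhb, which spans 256.9 kb, was nearly empty at first: it held 0 and 2 peaks in MEF, 0 and 0 at DAY3, 8 and 4 at DAY6, 13 and 11 at DAY9, and 8 and 15 in ESC. In the full lists every library from DAY6 on had more Pcdhb peaks than every earlier library. In lists of equal length this no longer held: Pcdhb had 0 and 0 peaks in MEF, 0 and 0 at DAY3, 2 and 1 at DAY6, 0 and 0 at DAY9, and 2 and 2 in ESC. The share of the sum of squares between stages was 84.1%, which did not pass (exact permutation test, p = 0.164, adjusted p = 0.312 over 12 tests). The DAY6 peaks here had folds of 3.37 to 4.94 and the ESC peaks folds of 2.94 to 8.52. All 12 DAY6 peaks and 20 of the 23 ESC peaks were at or above 3.03, the fold at which a peak at background level could be listed in both DAY3 libraries. Of the 24 DAY9 peaks, 8 were at or above it and the others below. To be listed, a peak at background level needed a fold of 3.37 and 3.61 in the DAY6 libraries and 3.35 in ESC replicate 1. Such a peak is above 3.03 by its listing alone, so these counts cannot show what the DAY3 lists could have missed. At matched depth, Pcdhb held 0 peaks in MEF replicate 1 against 8 in DAY6 replicate 1 and 8 in ESC replicate 1.

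Pcdhg, the shortest subcluster at 180.6 kb, had the densest peaks in each of the 10 libraries, with 38.8 to 155 per Mb against 11.6 to 50.2 in Pcdha and 0 to 58.4 in Pcdhb. It held 18 and 9 peaks in MEF, 7 and 9 at DAY3, 14 and 14 at DAY6, 16 and 16 at DAY9, and 25 and 28 in ESC. Both ESC libraries were above all the others, and MEF replicate 1 was above DAY3, DAY6 and DAY9. In lists of equal length Pcdhg held 9 and 4 peaks in MEF, 7 and 9 at DAY3, 12 and 11 at DAY6, 6 and 6 at DAY9, and 13 and 12 in ESC, so that DAY6 was close to ESC and DAY9 within the range of MEF. The stage share in the full lists was 87.1% (exact permutation test, p = 0.102, adjusted p = 0.312 over 12 tests). Pcdha, at 259.1 kb, held 5 and 3 peaks in MEF, 5 and 6 at DAY3, 11 and 5 at DAY6, 8 and 13 at DAY9, and 10 and 12 in ESC. DAY6 replicate 2 lay at the level of DAY3, so the stages overlapped, and the share was 73.8% (exact permutation test, p = 0.276, adjusted p = 0.312 over 12 tests). In lists of equal length Pcdha held 4 and 3 peaks in MEF, 5 and 6 at DAY3, and 3 and 4 in ESC, so ESC was no longer above the earlier stages.

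The stretches between and beside the subclusters were counted in the same way. The 50 kb before Pcdha1 had no peak in any library. The flank after the last Pcdhg member, which overlaps Diaph1, the gene of an actin-nucleating formin, held 5 to 8 peaks in every library. The stretch between Pcdha and Pcdhb held 1 to 3 peaks in each library. The stretch between Pcdhb and Pcdhg held 2 or 3 peaks in all MEF, DAY3, DAY6 and DAY9 libraries and 6 and 5 in ESC. The map of peaks along the cluster shows these stretches beside the subclusters.

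**Figure D2:**
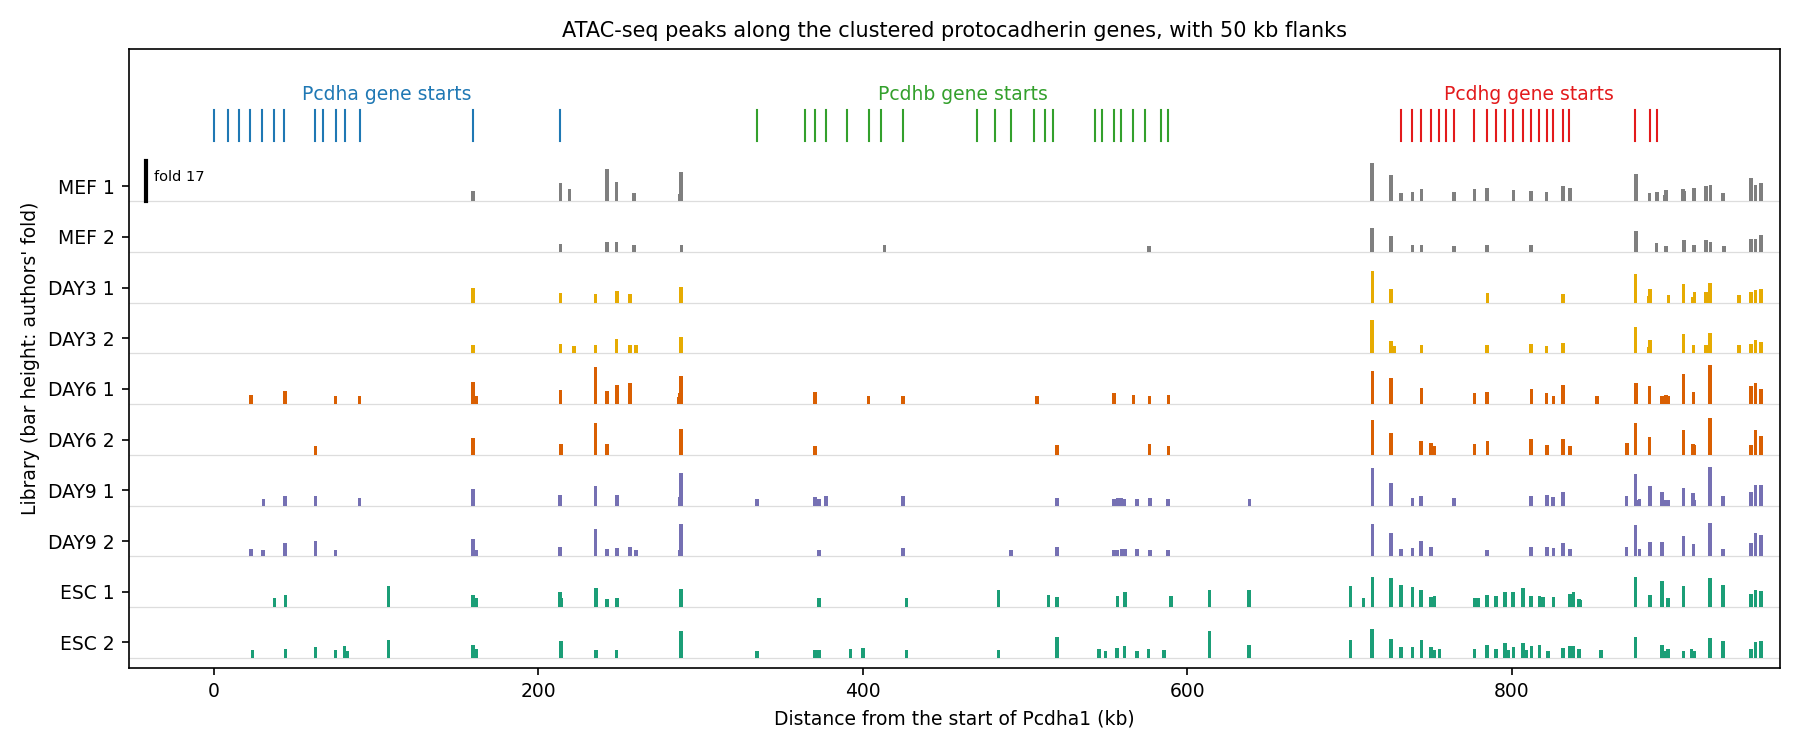
Peaks along the cluster for each of the 10 libraries, with distance from the start of Pcdha1 in kb on the horizontal axis and bar height giving the authors' fold; coloured ticks on top mark the 58 member starts. The Pcdhb stretch is empty in DAY3 and MEF replicate 1 and holds 4 to 15 peaks in each DAY6, DAY9 and ESC library.

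The next question was which members have an open promoter. A gene start counted as open if a peak overlapped the 500 bp on either side of it. This was so for 16 and 8 of 58 members in MEF, 6 and 9 at DAY3, 21 and 15 at DAY6, 22 and 24 at DAY9, and 20 and 24 in ESC. As a share this was 10.3% (DAY3 replicate 1) to 41.4% (DAY9 replicate 2 and ESC replicate 2), while among 17492 protein-coding genes on other chromosomes it was 52.3% to 59.8%. In every library the share of members was the lower of the 2. A start peak in both libraries of a stage was found for 8 members in MEF (51.0% of protein-coding genes), 6 at DAY3 (51.1%), 12 at DAY6 (54.7%), 17 at DAY9 (57.6%) and likewise 17 in ESC (56.9%). Reduced to equal length, the lists gave 3 such members for MEF (47.5%), 6 each for DAY3 (51.1%), DAY9 (53.4%) and ESC (49.2%) and 9 for DAY6 (52.1%), so DAY9 and ESC were then level with DAY3. The differences between stages in member starts did not pass (share 79.7%, exact permutation test, p = 0.229, adjusted p = 0.312 over 12 tests), nor did those of Pcdha starts (78.1%, p = 0.226) and Pcdhg starts (77.4%, p = 0.224) in the same test.

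Members differed widely among themselves. The starts of 17 members had no peak in any library (33.5% of protein-coding genes): 12 Pcdhb members, 4 Pcdha members (Pcdha1, Pcdha2, Pcdha3 and Pcdha9) and, in Pcdhg, Pcdhgb2 alone. Pcdha1, the first member of the cluster, was in this group. Pcdhac2 and Pcdhgc3 were the only members with a start peak in all 10 libraries (46.9% of protein-coding genes). Members of the same subcluster are close relatives in sequence. How reads that match several places were treated is not given in the sources used here, so a missing or weak peak at such members is uncertain, and its part in these counts was not tested.

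Among the C-type members, Pcdhgc3, a regulator of dendrite branching, had the highest fold in every library but DAY6 replicate 1, where Pcdhac1 was higher: 11.5 and 8.63 in MEF, 12.1 and 11.1 at DAY3, 8.86 and 13.4 at DAY6, 13.1 and 13.1 at DAY9, and 12.4 and 8.67 in ESC. Both DAY9 values were above every MEF, DAY3 and ESC value, and DAY6 held both the highest value and one of the lowest. Pcdhac2, known for its role in the spacing of serotonergic axons, had folds of 7.75 and 3.30 in MEF, 3.97 and 3.99 at DAY3, 5.81 and 4.51 at DAY6, 4.44 and 3.70 at DAY9, and 6.25 and 7.10 in ESC. Its ESC values were above those of DAY3, DAY6 and DAY9, and the MEF replicates lay above and below all the others.

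Pcdhac1, the other C-type member of Pcdha, had a peak in MEF replicate 1 (fold 4.30) but not in replicate 2. Its folds were 6.35 and 3.35 at DAY3, 9.34 and 6.91 at DAY6, 6.85 and 7.17 at DAY9, and 5.13 and 5.42 in ESC. The DAY6 and DAY9 values were above all others. Pcdhgc4, which is needed for the survival of neurons, was listed at 3.53 in MEF replicate 1, at 5.58 and 5.84 at DAY3, 7.45 and 7.60 at DAY6, 8.01 and 5.99 at DAY9, and 5.15 in ESC replicate 1. No peak was listed there in MEF replicate 2 and ESC replicate 2. Pcdhgc5, the last member of the cluster, went the other way, with folds of 3.94 and 3.62 in MEF and no peak in the other 8 libraries.

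**Figure D3:**
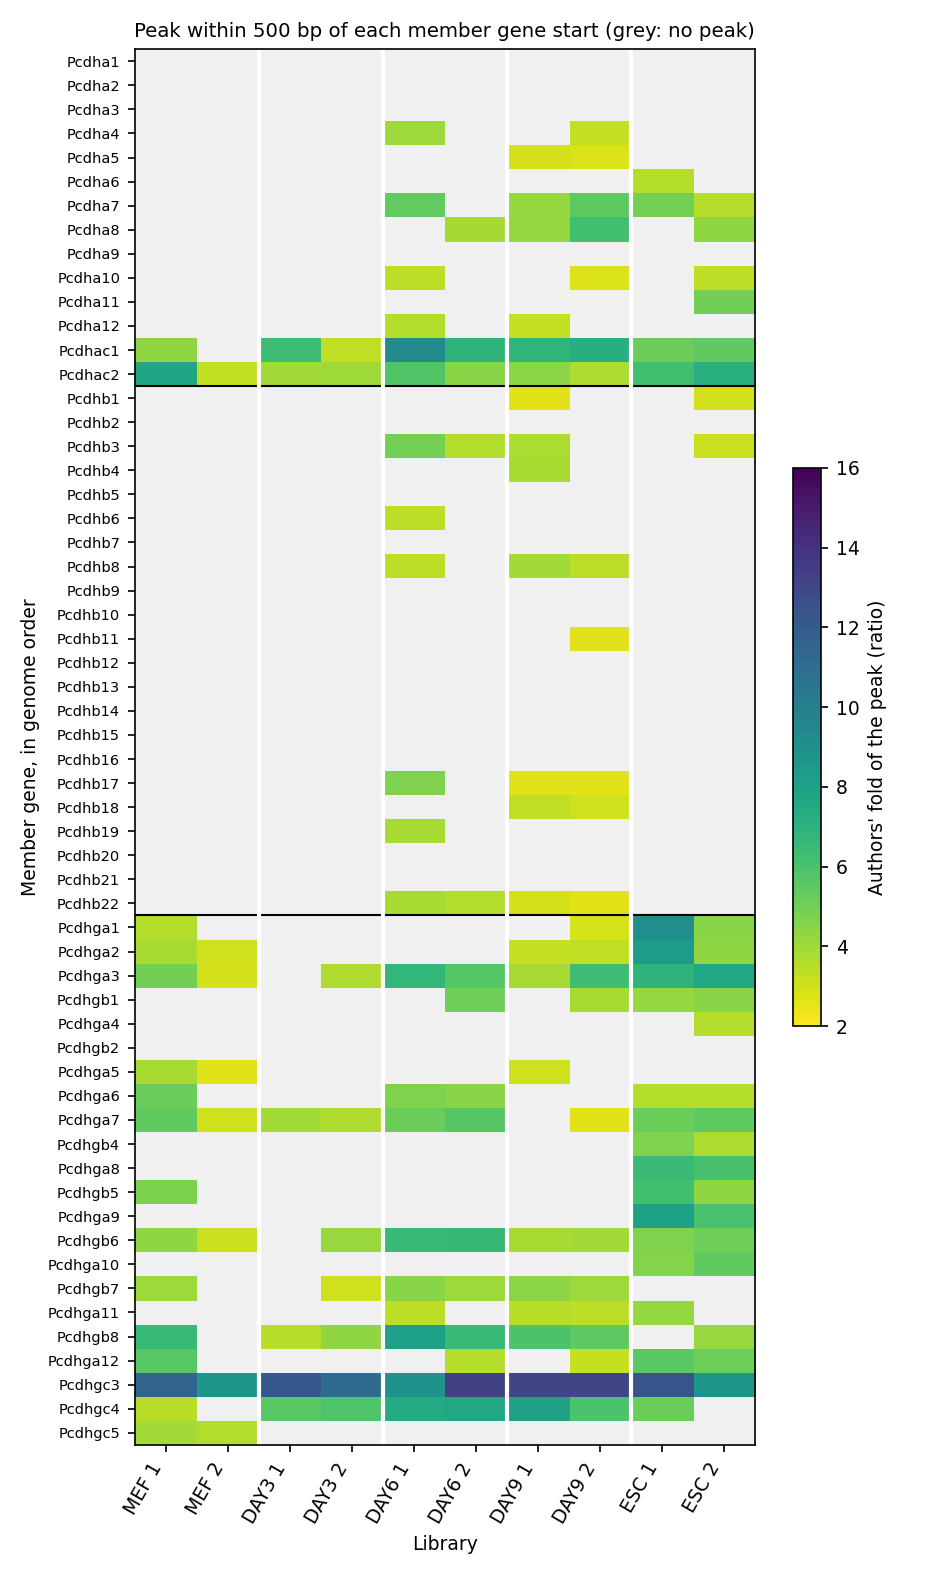
Peaks within 500 bp of the start of each of the 58 members, in genome order from top to bottom, by library; the colour gives the authors' fold and grey means no peak. Pcdhac2 and Pcdhgc3 are coloured in all 10 libraries, most Pcdhb members are grey throughout, and Pcdhga8, Pcdhga9, Pcdhga10 and Pcdhgb4 are coloured in ESC alone.

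Among the other Pcdhg members, a group was open at nearly every stage. Pcdhga3 had start peaks in 9 libraries, with folds of 2.90 (MEF replicate 2) to 7.59 (ESC replicate 2), and Pcdhgb6 in 9 libraries, with folds of 3.11 to 6.61. Both lacked a peak in DAY3 replicate 1. Pcdhga7 lacked one in DAY9 replicate 1 only, and its folds were 2.63 to 5.69. The pseudogene Pcdhgb8 had peaks in 8 libraries, with folds of 3.49 (DAY3 replicate 1) to 8.08 (DAY6 replicate 1).

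Other Pcdhg starts were open at part of the stages. Pcdhga2 had peaks at 3.85 and 3.00 in MEF, none in DAY3 and DAY6, 3.24 and 3.34 at DAY9, and 8.25 and 4.34 in ESC. Pcdhga6 had 5.21 in MEF replicate 1, 4.72 and 4.51 at DAY6 and 3.57 and 3.56 in ESC, and no peak in DAY3 or DAY9. Pcdhgb7 was open in MEF replicate 1, DAY3 replicate 2 and all DAY6 and DAY9 libraries (3.03 to 4.49) and had no start peak in ESC. ESC replicate 2 had a peak outside the start window, with its midpoint 821 bp after the start (2.88). The first member of the subcluster, Pcdhga1, was strongest in ESC, at 9.15 and 4.49, with 3.62 in MEF replicate 1 and 2.87 in DAY9 replicate 2. Of the remaining named members, Pcdhga12 had peaks in 5 libraries (3.23 to 5.66), both ESC libraries among them. Pcdhgb1 had peaks in 4 libraries (3.82 to 5.11), again with both of ESC, and Pcdhga11 in 4 (3.37 to 4.20), with both of DAY9.

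A run of Pcdhg members in the middle of the subcluster was open in ESC. Pcdhga8 (6.47 and 6.07), Pcdhga9 (8.03 and 6.04), Pcdhga10 (4.58 and 5.39) and Pcdhgb4 (4.68 and 3.72) had start peaks in both ESC libraries and in none of the other 8. Pcdhgb5, their neighbour, was open in ESC at 6.25 and 4.34 and in MEF replicate 1 at 4.76. These 5 members were picked out after their values were seen. Their range of 3.72 to 8.03 overlaps that of the members open at nearly every stage. Both libraries of ESC had a peak at 14 of 22 Pcdhg starts (56.9% of protein-coding genes), a share near that of all genes, and the count was 7 for MEF (51.0%), 4 for DAY3 (51.1%) and 8 each for DAY6 (54.7%) and DAY9 (57.6%). In lists of equal length Pcdhga8 and Pcdhga9 had start peaks in both ESC libraries, Pcdhga10 and Pcdhgb5 in 1 and Pcdhgb4 in 0, and the Pcdhg counts were 2, 4, 7, 3 and 5 from MEF to ESC in the order of the stages.

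The Pcdha members other than the C types were closed in MEF and DAY3: none of the 12 had a start peak in those 4 libraries. Pcdha7 was open in DAY6 replicate 1 (5.39), at DAY9 (4.20 and 5.49) and in ESC (4.91 and 3.56). The midpoints of its DAY9 and ESC peaks lay 513 to 584 bp after the start, so these calls depend on the 500 bp window. Pcdha8 was open in DAY6 replicate 2 (3.91), at DAY9 (4.20 and 6.21) and in ESC replicate 2 (4.34). Both libraries of a stage were open at 1 of 14 Pcdha starts in MEF (51.0% of protein-coding genes). They were open at 2, the C types, on DAY3 (51.1%) and likewise on DAY6 (54.7%), at 5 on DAY9 (57.6%) and at 3 in ESC (56.9%). In lists of equal length the count was 1 in MEF (47.5%), 2 on DAY3 (51.1%), 2 on DAY6 (52.1%), 3 on DAY9 (53.4%) and 1 in ESC (49.2%). ESC was then level with MEF. With a window of 250 bp in the full lists, the stage share of Pcdha starts was 59.3% (exact permutation test, p = 0.514), against 78.1% at 500 bp.

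The starts of Pcdhb members had peaks in all DAY6 and DAY9 libraries and in ESC replicate 2. They numbered 0 and 0 of 22 in MEF, 0 and 0 at DAY3, 6 and 2 at DAY6, 7 and 5 at DAY9, and 0 and 2 in ESC. With lists of equal length DAY6 replicate 1 had 2 start peaks, at Pcdhb3 and Pcdhb17, and the other 9 libraries had 0. Pcdhb3 had folds of 4.94 and 3.61 at DAY6, 3.72 in DAY9 replicate 1 and 3.10 in ESC replicate 2. Pcdhb22, the last member of the subcluster, had 3.82 and 3.61 at DAY6 and 2.88 and 2.63 at DAY9 and none in ESC. Pcdhb1, the first, was listed at 2.64 in DAY9 replicate 1 and 2.94 in ESC replicate 2. Of 22 such peaks, 20 were in the sorted DAY6 and DAY9 cells. The stage share was 79.2% (exact permutation test, p = 0.286, adjusted p = 0.312 over 12 tests), and all folds were below 5.

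Call changes at the starts, where both libraries of a stage had a peak and neither of the other did, were as follows. From MEF to ESC, 6 member starts were gained (4.46% of protein-coding genes): Pcdha7, Pcdhgb1, Pcdhgb4, Pcdhga8, Pcdhga9 and Pcdhga10. Pcdhga5 and Pcdhgc5 were lost (1.11%). From DAY9 to ESC, Pcdhga6, Pcdhgb4, Pcdhga8, Pcdhgb5, Pcdhga9 and Pcdhga10 were gained (1.81%), all in Pcdhg. In the same step Pcdha5, Pcdhb8, Pcdhb17, Pcdhb18, Pcdhb22 and Pcdhgb7 were lost (1.27%), and 4 of these 6 are Pcdhb members. To be listed, a peak at background level needed a fold of 3.35 and 2.94 in the ESC libraries. The DAY9 folds of Pcdha5 (2.88 and 2.75), Pcdhb17 (2.64 and 2.63) and Pcdhb22 (2.88 and 2.63) were below both. Those of Pcdhb8 and Pcdhgb7 were above both, and those of Pcdhb18 were 3.36 and 2.99. From MEF to DAY3, Pcdhga2, Pcdhga5 and Pcdhgc5 were lost (1.42%) and none was gained (0.818%). From DAY3 to DAY6, Pcdhb3, Pcdhb22 and Pcdhga6 were gained (2.40%) and none was lost (0.229%). From DAY6 to DAY9, Pcdha5, Pcdhb18 and Pcdhga2 were gained (1.19%) and Pcdhga6 was lost (0.177%). The DAY9 folds of the gained starts (2.75 to 3.36) were below the 3.37 and 3.61 that a peak at background level needed at DAY6. These calls have no test. In lists of equal length Pcdhga8 and Pcdhga9 were gained from MEF to ESC (3.86%) and Pcdhgc5 was lost (1.97%). From DAY9 to ESC, Pcdhga8, Pcdhga9 and Pcdhga12 were then gained (1.53%) and Pcdha7 and Pcdha8 lost (2.69%). None of the 6 losses named for this step in the full lists was among them. From DAY3 to DAY6, 1 start was gained (1.39%) and 0 lost (0.577%). The balance turned in the other steps, with 2 gained (2.09%) and 1 lost (0.646%) from MEF to DAY3, and 1 gained (0.715%) and 3 lost (0.486%) from DAY6 to DAY9.

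Pcdhb peaks of ESC lay elsewhere in the genes. A window of 1000 to 3000 bp after the start, chosen after the positions had been seen, held a peak at 0 and 2 of 22 Pcdhb members in MEF, 0 and 0 at DAY3, 2 and 2 at DAY6, 6 and 6 at DAY9, and 8 and 12 in ESC. In ESC replicate 1 all 8 Pcdhb peaks lay in this window and none at a start. In ESC replicate 2 it held 12 of the 15, and 2 lay at a start. The 38 peaks in the window belonged to 16 members, and their midpoints lay 1925 to 2870 bp after the start, with a median of 2169 bp. All 38 midpoints were inside the annotated span of their gene, at 39.7% to 84.5% of its length.

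**Figure D4:**
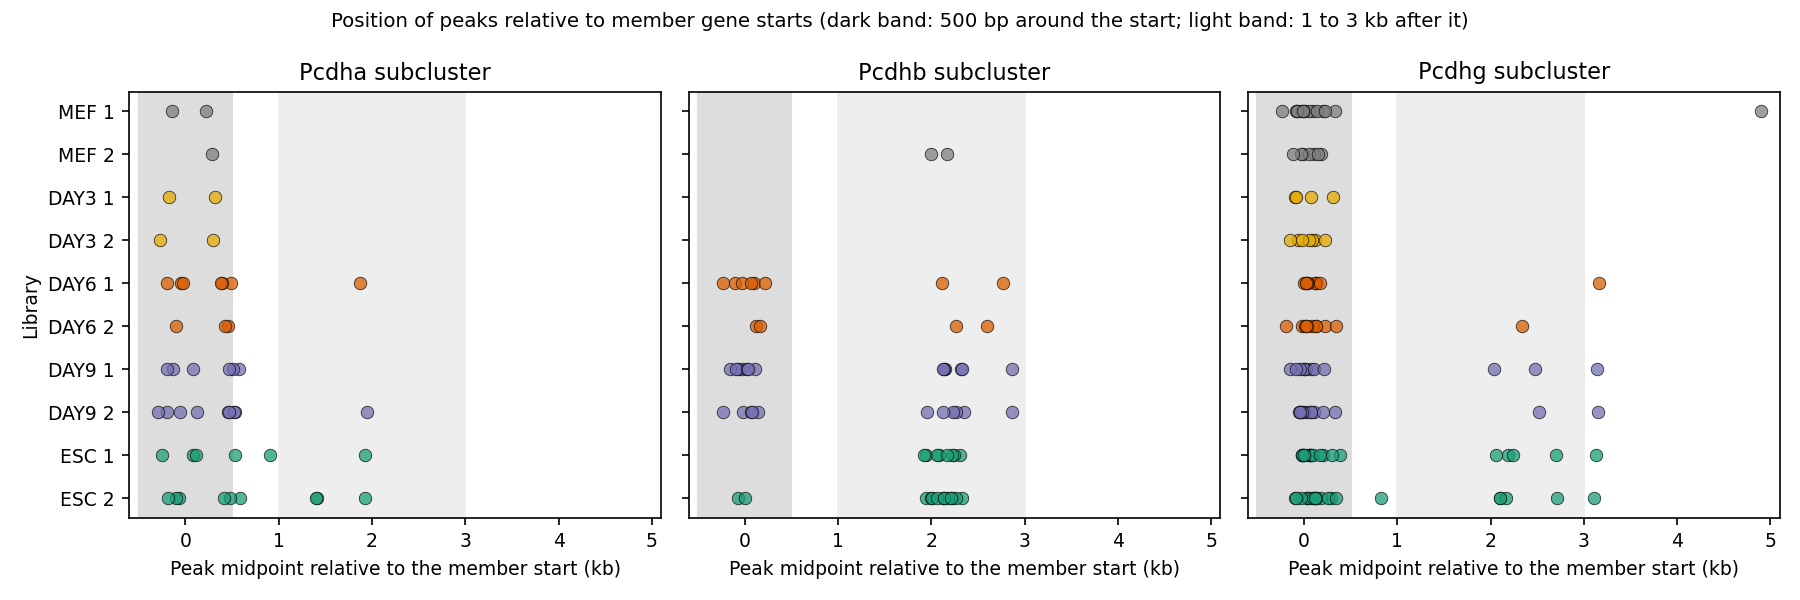
Distance in kb (horizontal axis) of each peak midpoint from the last member start that lies before it or at most 500 bp after it, by subcluster and library; 1 point is 1 peak, peaks more than 5 kb from the start are not drawn, the dark band marks 500 bp on either side of the start and the light band 1000 to 3000 bp after it. Pcdhb points of DAY6 and DAY9 fall in both bands, and those of ESC replicate 1 all fall in the light band.

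Both libraries of a stage had such a downstream peak at 0 Pcdhb members in MEF (7.41% of protein-coding genes), 0 at DAY3 (6.83%), 1 at DAY6 (7.52%), 6 at DAY9 (9.88%) and again 6 in ESC (8.12%). Over all 58 members the share with a downstream peak was 0% and 3.45% in MEF, 0% and 0% at DAY3, 5.17% and 5.17% at DAY6, 12.1% and 13.8% at DAY9, and 22.4% and 32.8% in ESC. Protein-coding genes on other chromosomes had 8.2% to 12% in the same libraries. The shares of members were below the general ones up to DAY6, near them at DAY9, where both libraries had 11.6% of protein-coding genes, and above them in ESC, where these had 12% and 10.9%. This is a description, since the window followed from the data. It rests on weak peaks: in lists reduced to equal length, Pcdhb18 was the only Pcdhb member with a downstream peak in both ESC libraries, and DAY9 had none.

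Single Pcdhb genes show both positions. Pcdhb14, without a start peak in any library, had a downstream peak in DAY6 replicate 2 (4.21), at DAY9 (3.36 and 3.94) and in ESC (4.24 and 8.52). Pcdhb18 had start peaks in DAY9 alone (3.36 and 2.99) and downstream peaks at DAY9 (2.64 and 2.87) and ESC (6.25 and 4.80). Pcdhb8 had start peaks in DAY6 replicate 1 and at DAY9 (3.37, 3.96 and 3.46) and downstream peaks in ESC alone (3.79 and 3.25). Pcdhb10 had only a downstream peak, in ESC, at 6.92 and 3.25. These 4 were picked after their values were seen. Of all 58 members, 41 had a start peak in some library (66.5% of protein-coding genes), 26 a downstream peak (24.0%), 16 both (17.4%) and 7 neither (27.0%).

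The last question was which single regions of the interval open and close. Of the 109 regions, 41 overlapped a member start window and the median width was 525 bp. Peaks in all 10 libraries were found at 10 (9.17%, against 7.35% of all regions) and in 1 library at 35 (32.1%, against 37.9%), so both shares were near those of all regions. From MEF to ESC, 23 regions were gained (21.1%, against 15.9% of all regions) and 4 were lost (3.67%, against 11.1%). The gains were 4 in Pcdha, 6 in Pcdhb, 10 in Pcdhg and 3 between Pcdhb and Pcdhg. From MEF to DAY3, 3 were gained (2.75%, against 5.43%) and 6 lost (5.5%, against 10.4%). From DAY3 to DAY6, 5 were gained (4.59%, against 5.29%) and 2 lost (1.83%, against 1.50%). From DAY6 to DAY9, 9 were gained (8.26%, against 5.39%), 5 of them in Pcdhb, and 1 was lost (0.917%, against 0.956%). The 5 gains in Pcdhb had DAY9 folds of 2.63 to 3.36. A peak at background level needed 3.37 and 3.61 to be listed at DAY6, so these gains cannot be told apart from that limit. From DAY9 to ESC, 14 were gained (12.8%, against 9.10%), 9 of them in Pcdhg, and 9 were lost (8.26%, against 9.24%). At equal list length the balance turned in 2 steps. From MEF to DAY3, 5 of then 58 regions were gained (10.6% of all regions) and 2 lost (9.30%), and from DAY6 to DAY9, 1 was gained (3.52%) and 4 lost (2.36%). The step to DAY6 then had 2 gains (4.33%) and 2 losses (4.09%), that from DAY9 to ESC 11 and 3 (7.85% and 10.5%), and from MEF to ESC 11 and 5 (12.9% for both).

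Of the regions open in all libraries, the highest by summed score was chr18:37643725-37644790, between Pcdhb and Pcdhg at Taf7, the gene of a general transcription factor subunit. Its folds were 10.1 (MEF replicate 2) to 16.0 (MEF replicate 1). The region chr18:37805992-37807237 is the Pcdhgc3 start described above, and chr18:37143174-37144859 the Pcdhac2 start. The region chr18:37217828-37218645, between Pcdha and Pcdhb, had folds of 12.1 and 2.79 in MEF, 6.55 and 7.11 at DAY3, 11.7 and 11.0 at DAY6, 13.5 and 13.5 at DAY9, and 7.36 and 11.0 in ESC. It lies in no member gene, and the values of the MEF replicates were further apart than those of any other stage. Of the others, 4 lay in Diaph1, 1 in the span of all 22 Pcdhg members at chr18:37835355-37836800, and 1 just before Pcdhg at chr18:37655388-37656166.

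The gained region with the highest summed score was chr18:37165197-37165964, inside the span of all 14 Pcdha members, 21902 bp after the Pcdhac2 start. It had no peak in MEF, folds of 3.65 and 3.35 at DAY3, 15.7 and 13.2 at DAY6, 8.17 and 11.4 at DAY9, and 7.81 and 3.10 in ESC. It was already listed at DAY3 and was highest at DAY6, both of whose libraries were above all others. A second, chr18:37822350-37823045, lay 3151 bp after the Pcdhgc5 start, with no peak in MEF and DAY3, 3.55 in DAY6 replicate 1, 5.63 and 5.79 at DAY9, and 11.0 and 5.27 in ESC. Whether these lie in exons or introns was not analysed here, because the gene table gives spans only.

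**Figure D5:**
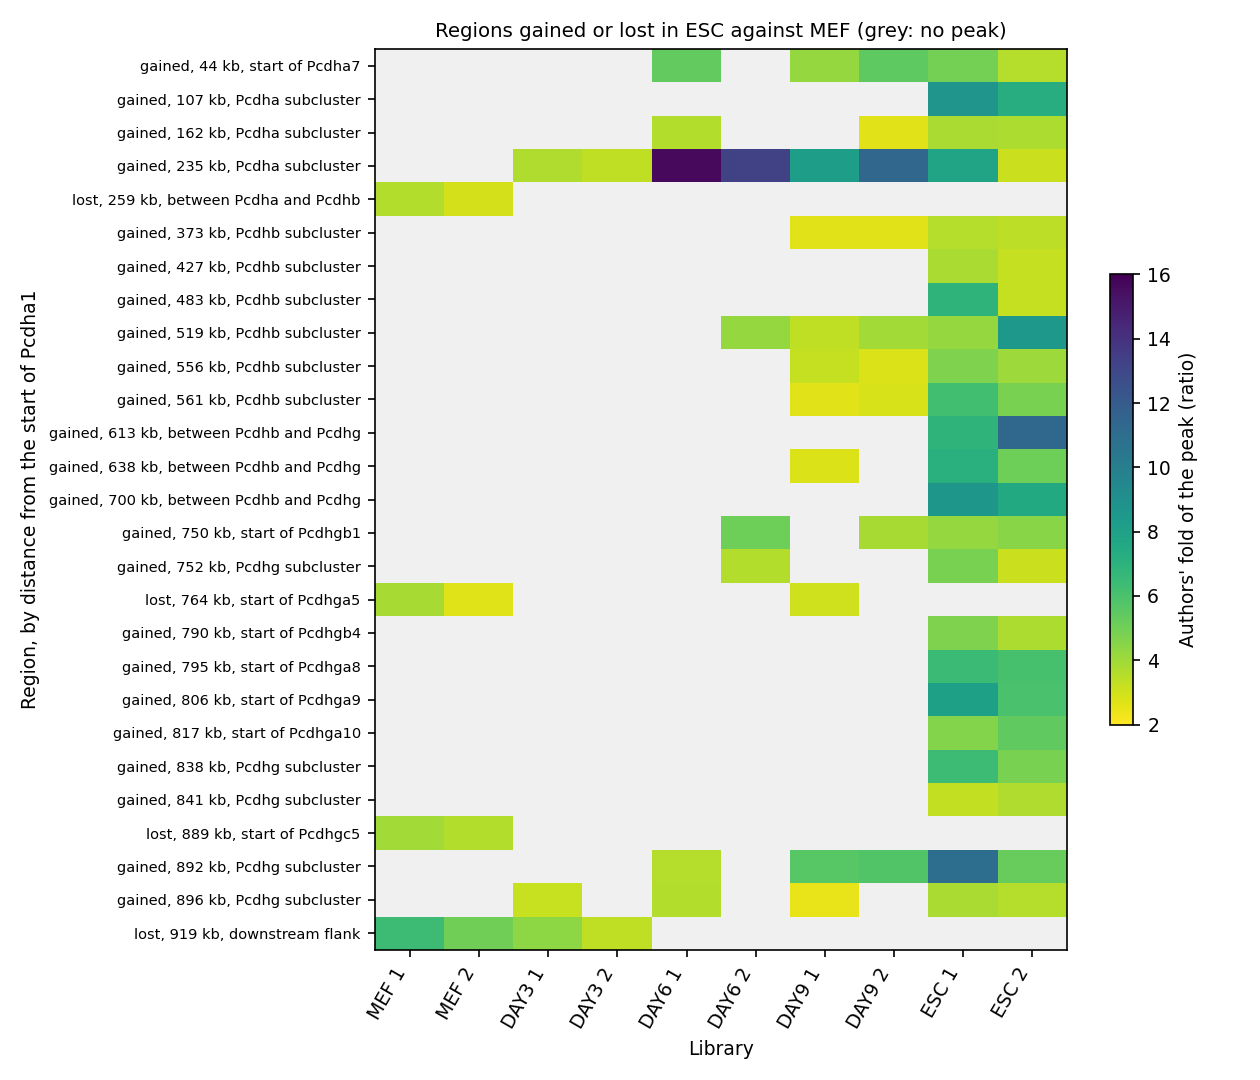
The 23 regions gained and 4 lost from MEF to ESC, ordered by distance from the start of Pcdha1 in kb, by library; the colour gives the authors' fold and grey means no peak. The Pcdha region at 235 kb is strongest at DAY6, and 3 lost regions have no peak after DAY3.

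Some gains were seen in ESC alone. The regions chr18:37543487-37544357 (6.92 and 11.3) and chr18:37630246-37631458 (8.60 and 7.50), between Pcdhb and Pcdhg, had no peak in the other 8 libraries. The same held for chr18:37037548-37038281 between Pcdha12 and Pcdhac1 (8.70 and 7.28), which was picked after its values were seen. In all, 11 of the 109 regions had peaks in both ESC libraries and no other (7.91% of all regions), and 2 had peaks in both MEF libraries and no other (8.32%). Another of the 5 gained regions with the highest summed scores, chr18:37449488-37450184, is the downstream peak of Pcdhb14 given above.

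The 4 lost regions were led by chr18:37849397-37850262 in Diaph1, at 6.39 and 5.04 in MEF, 4.35 and 3.36 at DAY3 and no peak afterwards. The starts of Pcdhgc5 (chr18:37819083-37819780) and Pcdhga5 (chr18:37694187-37694631) were lost as well. Pcdhga5 had folds of 3.85 and 2.68 in MEF and 3.00 in DAY9 replicate 1. The last, chr18:37188907-37189357, just after the end of Pcdha, had 3.62 and 2.90 in MEF and no peak elsewhere.

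Most genes that act on the cluster were open throughout. Of 19 regulators of clustered protocadherin promoters, the start could be read for 15, and 10 of these had a peak in all 10 libraries (46.9% of protein-coding genes). Ctcf, which binds the promoters and enhancers, had folds of 5.95 to 11.1. Smchd1, a repressor of the cluster, had 7.08 to 13.4, and Dnmt3b, a DNA methyltransferase that acts on its promoters, had 3.89 to 10.4. From MEF to ESC, Stag1, a cohesin subunit, was gained, with 3.84 in DAY9 replicate 1 and 8.43 and 5.50 in ESC. None was lost. Tet1, a DNA demethylation enzyme, had peaks in both MEF libraries (4.83 and 2.90) and in ESC replicate 1 (5.14) but not replicate 2. Wapl, Dnmt1 and Dnmt3a had no start peak in any library. Only the outermost annotated start of each gene was examined.

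Non-clustered protocadherins are single genes elsewhere in the genome. The start could be read for 9 of 12, and 7 of these had a peak in all 10 libraries (46.9% of protein-coding genes). Pcdh15, a component of the tip links of hair cells, was gained from MEF to ESC, with 4.09 and 3.16 at DAY9 and 3.47 and 3.18 in ESC. Neural markers, given because neurons are the cells known for clustered protocadherin expression, could be read for 7 of 8 genes. Of these, 2 had a start peak in each MEF and DAY3 library and 5 in each DAY6, DAY9 and ESC library (52.3% to 59.8% of protein-coding genes over the 10 libraries). The 5 were not the same genes throughout. Dcx had peaks at DAY6 and DAY9 and none in ESC, and Pax6 had peaks in ESC alone (2.78 and 3.18). The neural stem cell factor Sox1 had folds of 4.97 to 7.06 from DAY6 on and no peak before, and Rbfox3 had none in any library. Epithelial markers (2 of 4 read) had 0 start peaks in MEF and 0 or 1 per DAY3 library. They had 1 per DAY6 library and 2 per DAY9 and ESC library (again 52.3% to 59.8% of protein-coding genes over the 10 libraries). The part of neural or epithelial cells in the protocadherin peaks was not tested.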

How the data were processed

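The authors deposited 1 peak list per library. Bowtie2 2.3.2, MACS2 2.1.1, deepTools 2.3.6 and mm10 are named in the submitters' processing notes, without parameters. Handling of duplicate and multiply mapping reads is not given in the sources used here. In the authors' lists the score is 10 times the −log10 p-value, rounded down, and all deposited −log10 p-values were at least 5. The fold is a deposited linear ratio of a peak's pileup to its local background. Folds are set side by side between lists as a description only.

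Background pileups were recovered from fold and −log10 p. Peaks were joined over all 10 lists into regions with a minimum overlap of 1 bp, and assigned to a subcluster by midpoint. A region or start was gained if both libraries of the later stage and neither of the earlier had a peak. Members and lists of genes were chosen with earlier results of these data known. Members were all taken to start at their lower coordinate. Starts of 17492 protein-coding genes with a known strand in the RefSeq promoter table (GRCm38), on chromosomes other than 18, served as background. Stages were compared with an exact permutation test of the between-stage share of the sum of squares over 420 partitions of 8 samples, which can give a p of 0.00238 at the smallest, with Benjamini-Hochberg adjustment over 12 tests. Tied values raise that smallest p. These p-values measure the spread between these samples, which the series describes as biological replicates. The calls were tried on copies of the list of DAY3 replicate 1 with planted changes, and the test on normally distributed values. Neither setting had the tied counts, the depth differences or the replicate noise of these lists. Named members were the C types, the first and last of each subcluster and the 15 others with start peaks in the most libraries, among those open in both libraries of a stage. Other names were chosen after their values were seen. Alternatives were equal list lengths, a score of at least 133 (the median), 10 separate libraries, a replicate block, other windows, no flanks, covered length and leaving out each library. Python 3.11.15, numpy 2.4.6, pandas 2.3.3, scipy 1.17.1 and matplotlib 3.10.9 were used.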

Additional observations from a re-analysis of the deposited data

How the results depend on the processing

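Where the number of partitions lets a single p pass on its own, none of the 12 stage tests passed under another setting (37 values over 420 partitions and 12 over 945), nor did any of 48 values without a DAY3 or DAY9 library. Ties kept some of these values from passing. For Pcdhb peak number at a score of 133 or more the share was 100%, but 60 of 420 partitions gave as much (exact permutation test, p = 0.143). Such tied values say nothing about stability. The replicate block and leaving out a MEF, DAY6 or ESC library allow 120 and 105 partitions, where a single result cannot fall below an adjusted p of 0.1 and 0.114, so these tests say nothing about stability. With 10 separate libraries, the share between stages for peaks in the whole interval was 89.9% (exact permutation test, p = 0.00635, adjusted p = 0.0762 over 12 tests). The replicate numbers gave no pairing, with correlations of −0.0095 to 0.0221 between the deviations of libraries that share a number (10 pairs). With replicate number as a block, the share was 89.9% (exact permutation test, p = 0.0167, adjusted p = 0.2 over 12 tests). Summit positions were not used, because the summit column holds no position, and starts of Pcdhb members had no peak at a score of 133 or more, so neither alternative gave a value.

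The region and member counts depend on the threshold and have no test. With lists of equal length, regions gained and lost were 5 and 2 from MEF to DAY3 and 1 and 4 from DAY6 to DAY9, which turns the balance of both steps, and gained 2 from DAY3 to DAY6, lost 3 from DAY9 to ESC and gained 11 from MEF to ESC. At a score of 133 or more they were 1 and 1 from MEF to DAY3, 3 and 0 from DAY3 to DAY6, gained 1 from DAY6 to DAY9, lost 4 from DAY9 to ESC and gained 12 from MEF to ESC. When 50% of a region had to be covered, 1 was lost from DAY3 to DAY6, 3 from DAY6 to DAY9 and 8 from MEF to ESC, and without flanks 0 were lost from DAY3 to DAY6. Member starts open in both libraries were 3 in MEF, 6 in DAY9 and 6 in ESC at equal length, and 1 in MEF, 2 in DAY3, 5 in DAY6, 4 in DAY9 and 6 in ESC at the higher score. Pcdhb members with a downstream peak in both libraries were 0 in DAY6, 0 in DAY9 and 1 in ESC under either setting. These are the weaker peaks of the lists, and the cause was not tested.

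Leaving out each library in turn, the between-stage share ranged from 86.4% to 92.8% for peaks in the whole interval, 65.6% to 94.7% for Pcdha, 81.3% to 95.3% for Pcdhb and 79.4% to 98.7% for Pcdhg. Per 10000 peaks it ranged from 70.9% to 89.5%, 45.6% to 96.3%, 81.1% to 93.4% and 61.0% to 97.4% in the same order, and for member starts from 77.7% to 90.9% (all), 71.7% to 92.0% (Pcdha), 75.5% to 95.8% (Pcdhb) and 69.5% to 99.5% (Pcdhg). Regions gained and lost ranged from 3 to 6 and 6 to 14 (MEF to DAY3), 5 to 21 and 2 to 5 (DAY3 to DAY6), 12 to 16 and 2 to 6 (DAY6 to DAY9), 16 to 28 and 11 to 14 (DAY9 to ESC), and 23 to 42 and 5 to 8 (MEF to ESC). Without a library a call needs fewer peaks, so these counts are larger by construction. Member starts ranged from 8 to 16 in MEF, 6 to 9 in DAY3, 15 to 21 in DAY6, 22 to 24 in DAY9 and 20 to 24 in ESC, and Pcdhb downstream peaks from 0 to 2 in MEF, 0 to 0 in DAY3, 2 to 2 in DAY6, 6 to 6 in DAY9 and 8 to 12 in ESC.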
